A study of Mus musculus with 23 samples.

Results

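Cdkl4, Folh1, Itgad, Tph2, Ptchd4, Gabrr2 and Unc79 were near 0 in the mammary fat pad of lean mice and raised in that of obese mice given anti-PD-1. These 7 genes, of 47311 summed in the files, were chosen by name for that pattern in these same libraries. No numeric threshold defined the choice, so the difference between obese anti-PD-1 and lean libraries is given here as a description without a test. The pattern itself names neither the obese libraries of the isotype control nor the variation among libraries of 1 group, although earlier results of these data were known. The main tests use these, and in the first of them the low lean side of the comparison was still part of the choice. Correlations with Lep over obese libraries of both antibodies also hold the group difference and are not independent of the choice.

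RNA was sequenced from adipose tissue of the mammary fat pad beside an E0771 tumor in 23 female C57BL/6J mice, with 1 library per mouse. E0771 is a mouse mammary carcinoma line, which here carried luciferase, and 250000 cells in 25% matrigel were placed in mammary gland 4 of each animal. Antibody was injected into the peritoneum every 3 days from the day 3 dose until day 21, at 200 µg a mouse. Anti-PD-1 blocks an inhibitory receptor of T cells, and IgG2a is its isotype control. The obese anti-PD-1 group held 8 mice on food with 60% of its energy from fat. The obese IgG2a group held 5 mice on the same food. The lean anti-PD-1 and lean IgG2a groups held 5 mice each, on food with 10% of its energy from fat. All animals carried the tumor, and the treatment text of every sample describes only the high-fat food, given between 8 and 26 weeks of age. Libraries are numbered within a group in the order of their deposit, and the numbers pair nothing.

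Fat pads grow in obesity mainly by enlargement and addition of adipocytes, which store triglyceride and secrete leptin (the product of Lep) in proportion to their size. Several of the genes here are best known from the nervous system, where serotonin and GABA are transmitters made and sensed by neurons. A mammary fat pad also holds a lymph node, blood vessels, ducts, macrophages and nerve fibers, and whole-tissue RNA mixes them all. In such bulk samples, fewer cells of a type and less RNA per cell cannot be told apart.

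The genes differ in what their products do. Tph2 encodes the tryptophan hydroxylase of neurons, the first and rate-limiting enzyme of serotonin synthesis. Gabrr2 encodes a rho subunit of GABA-gated chloride channels, known from the retina. Unc79 encodes a large accessory protein of the sodium leak channel NALCN. Itgad encodes the alpha D subunit that pairs with the beta 2 chain (Itgb2) in an integrin of myeloid cells. Folh1 encodes a membrane carboxypeptidase that trims glutamate from folates in the gut and from a neuropeptide in brain. Ptchd4 encodes a membrane protein related to the hedgehog receptor Patched. Cdkl4 encodes a kinase of the cyclin-dependent kinase-like family.

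On GRCm38 the genes lie on 5 chromosomes. Cdkl4 (chr17:80523550-80577813, minus strand) and Ptchd4 (chr17:42315947-42505077, plus strand) share chromosome 17. Folh1 (chr7:86718977-86775943, minus strand) and Itgad (chr7:128154376-128223816, plus strand) share chromosome 7. Tph2 is on chromosome 10 (115078641 to 115185022, minus strand), Gabrr2 on chromosome 4 (33062999 to 33095865, plus strand) and Unc79 on chromosome 12 (102948859 to 103184065, plus strand). The kit did not mark strand, so reads of overlapping genes cannot be told apart: 110 of 3341 exon bases of Cdkl4 lie over the antisense gene AC131712.1, and Itgad shares up to 388 of 4510 exon bases with any 1 of 4 other genes. Reads of Itgad and of related integrin genes could also have been split by the authors' estimation. Unc79 shares 84 of 14265 exon bases with Gm27976 and none with Gm44324 and Gm47201, which also lie over it. Folh1, Tph2, Ptchd4 and Gabrr2 overlap no annotated gene.

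A single transcript carried the level of most of these genes. In obese anti-PD-1 libraries Cdkl4-201, Tph2-201 and Ptchd4-201 held 100% of their gene's estimated counts, Itgad-204 held 94.1%, Folh1-201 88.9% and Gabrr2-201 87.2%. Unc79 was spread over Unc79-208 (44.5%), Unc79-205 (24.0%), Unc79-202 (18.9%) and Unc79-201 (11.6%). The 250 bases upstream of the start of Tph2-201, Cdkl4-201 and Ptchd4-201 are shown because these genes have 1 transcript in use and RefSeq gives the same start. Capitals mark the motif matches found among 5 motifs searched on both strands. The motifs were the TATA box TATAAA, the GC box GGGCGG, the nuclear receptor motif AGGTCA, the E-box CACGTG and the C/EBP-type TTGCNNAA. The windows are chr10:115185023-115185272, minus strand, for Tph2, chr17:80563835-80564084, minus strand, for Cdkl4, and chr17:42315697-42315946, plus strand, for Ptchd4 (RefSeq, GRCm38.p6), each written 5′ to 3′ in the direction of the gene.
Tph2: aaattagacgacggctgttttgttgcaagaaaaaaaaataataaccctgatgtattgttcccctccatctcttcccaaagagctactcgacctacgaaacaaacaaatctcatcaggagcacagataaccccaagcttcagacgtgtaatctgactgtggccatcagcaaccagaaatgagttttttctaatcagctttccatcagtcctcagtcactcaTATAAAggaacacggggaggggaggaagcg
Cdkl4: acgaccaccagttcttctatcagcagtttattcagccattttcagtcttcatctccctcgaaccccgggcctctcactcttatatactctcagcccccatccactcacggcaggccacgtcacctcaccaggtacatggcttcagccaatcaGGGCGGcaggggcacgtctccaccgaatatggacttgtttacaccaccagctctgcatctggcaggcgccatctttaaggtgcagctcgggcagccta
Ptchd4: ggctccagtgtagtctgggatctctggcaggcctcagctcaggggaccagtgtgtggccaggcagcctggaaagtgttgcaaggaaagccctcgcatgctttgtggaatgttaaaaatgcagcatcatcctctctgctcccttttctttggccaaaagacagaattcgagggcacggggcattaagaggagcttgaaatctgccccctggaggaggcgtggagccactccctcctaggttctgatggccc

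The Tph2 window holds TATAAA at -30 from the start, a match found in 12.4% of 32851 mouse windows of the same length. The Cdkl4 window holds GGGCGG at -98, found in 32.7% of those windows, and its end nearest the start lies within an exon of AC131712.1. None of the 5 motifs is in the Ptchd4 window shown. RefSeq also gives a second start for Ptchd4, whose window holds the GC box at 2 places, and a second for Cdkl4, whose window holds it at 1, but no transcript in the files starts exactly there. The RefSeq window of Folh1 holds the GC box at 1 place as well. It also holds the C/EBP-type motif at 2 places (-234 and -183), a motif found in 9.6% of all windows. The GC content of the Tph2, Cdkl4 and Ptchd4 windows shown was 43.6%, 55.6% and 56.0%, against a median of 52.4% over all windows. RefSeq promoter windows matched 6 of the 7 genes.

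The libraries held between 49438121 and 77369057 estimated counts each. Values below are counts scaled to library size with TMM factors (CPM), unless TPM, a scaled abundance that also divides by transcript length, is named. The 10 adipocyte markers summed to 4881 to 37394 CPM over the obese and 10996 to 31522 CPM over the lean libraries, and none was at 0 in any group, so adipocyte RNA was present throughout. Lymph node RNA varied most: a B cell score, the mean log2 CPM of 12 B cell genes, was at or above 5.20 in 11 libraries and at or below -0.97 in 12. A score of 4 divided them, with 2 of 8 obese anti-PD-1, 2 of 5 obese IgG2a, 3 of 5 lean anti-PD-1 and 4 of 5 lean IgG2a libraries above it. Summed genes of the liver reached 9760 CPM in obese IgG2a 5 (at most 3728 elsewhere), and 4 tumor-linked genes reached 411 and 269 CPM in obese IgG2a 5 and 2 (at most 127 elsewhere). Skeletal muscle genes summed to 2892, 2663 and 880 CPM in lean IgG2a 1, lean anti-PD-1 2 and lean anti-PD-1 1, against at most 328 elsewhere.

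In lean libraries, 21 of the 70 values of the 7 genes were 0, which allows up to 0.0441 to 0.0602 CPM (3 counts; counting error only), and 64 were under 1 CPM. All 7 genes passed the filter on low counts that left 19882 genes for testing. They passed through the obese group in which they are high, so that they passed is no result. The values by library follow, in the order of the genes' roles.

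Tph2 measured 0.469 to 73.5 CPM (median 23.2) in the 8 obese anti-PD-1 libraries. It measured 1.54, 3.68, 0.0562, 7.19 and 7.01 CPM in obese IgG2a libraries 1 to 5. Lean anti-PD-1 libraries 1 to 5 gave 0, 0.310, 0.151, 0 and 0.490 CPM, and lean IgG2a libraries 1 to 5 gave 0, 0.0882, 0.201, 0 and 0.385 CPM. The highest value was in obese anti-PD-1 6. Obese anti-PD-1 3 and obese IgG2a 3, both with a B cell score above 4, fell within the lean range, and the other 11 obese libraries exceeded every lean library.

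Gabrr2 measured 5.97 to 55.9 CPM (median 35.8) in obese anti-PD-1 libraries. Obese IgG2a libraries 1 to 5 gave 2.95, 9.09, 1.60, 51.0 and 4.47 CPM. It gave 0, 0.345, 1.33, 0 and 0.735 CPM in lean anti-PD-1 and 0.570, 0.588, 0.863, 1.34 and 1.13 CPM in lean IgG2a libraries. All 13 obese libraries lay above all 10 lean ones, although obese IgG2a 3 (1.60 CPM) was close to lean IgG2a 4 (1.34 CPM). Lean IgG2a libraries held some counts of this gene in every animal.

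Unc79 measured 0.910 to 33.4 CPM (median 16.6) in obese anti-PD-1 libraries. The obese IgG2a libraries gave 0.405, 6.02, 0.619, 24.1 and 6.26 CPM. Lean anti-PD-1 libraries gave 0, 0.207, 0.271, 0.882 and 0.0350 CPM, and lean IgG2a libraries gave 0.152, 0.412, 0, 0 and 0.430 CPM. Obese IgG2a 1 and 3 fell within the lean range, and obese anti-PD-1 3 was barely above it.

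Itgad measured 1.73 to 52.2 CPM (median 35.6) in obese anti-PD-1 libraries. It measured 0.405, 12.6, 2.11, 40.6 and 6.30 CPM in obese IgG2a, 0.721, 0, 0.151, 0 and 0.245 CPM in lean anti-PD-1, and 0.247, 0.0588, 0.141, 0.268 and 0.356 CPM in lean IgG2a libraries. Obese IgG2a 1 was the only obese library within the lean range in CPM. In TPM, lean anti-PD-1 1 and 3 (1.23 and 0.675) lay above obese anti-PD-1 3 (0.636) and obese IgG2a 1 (0.0961). Of the Itgad counts in lean anti-PD-1 libraries, the 653-base Itgad-205 held 52.3%.

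Folh1 measured 1.83 to 62.1 CPM (median 41.5) in obese anti-PD-1 libraries. It measured 4.98, 18.5, 0.492, 28.9 and 10.4 CPM in obese IgG2a, 0, 0.138, 0.512, 0 and 0.385 CPM in lean anti-PD-1, and 0.932, 1.26, 0.241, 0.417 and 3.65 CPM in lean IgG2a libraries. Lean IgG2a 5 stood above 2 obese libraries, obese anti-PD-1 3 and obese IgG2a 3, so "near 0" does not hold for Folh1 in that lean animal.

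Ptchd4 measured 0.711 to 34.6 CPM (median 14.8) in obese anti-PD-1 libraries. Obese IgG2a libraries gave 1.72, 4.92, 0.478, 12.7 and 3.51 CPM, lean anti-PD-1 libraries 0, 0.534, 0.0301, 0 and 0 CPM, and lean IgG2a libraries 0.190, 0.353, 0.0803, 0 and 0.756 CPM. The same 2 obese libraries, obese anti-PD-1 3 and obese IgG2a 3, were within the lean range.

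Cdkl4 measured 1.31 to 39.1 CPM (median 20.6) in obese anti-PD-1 libraries. It measured 3.55, 9.27, 3.60, 19.8 and 5.62 CPM in obese IgG2a, 0, 0, 0.211, 0 and 0 CPM in lean anti-PD-1, and 0.418, 0.235, 0.0402, 0.685 and 1.51 CPM in lean IgG2a libraries. Every obese IgG2a library was above every lean one, and obese anti-PD-1 3 was not. Lean anti-PD-1 libraries showed this gene in 1 of 5 animals.

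**Figure D1:**
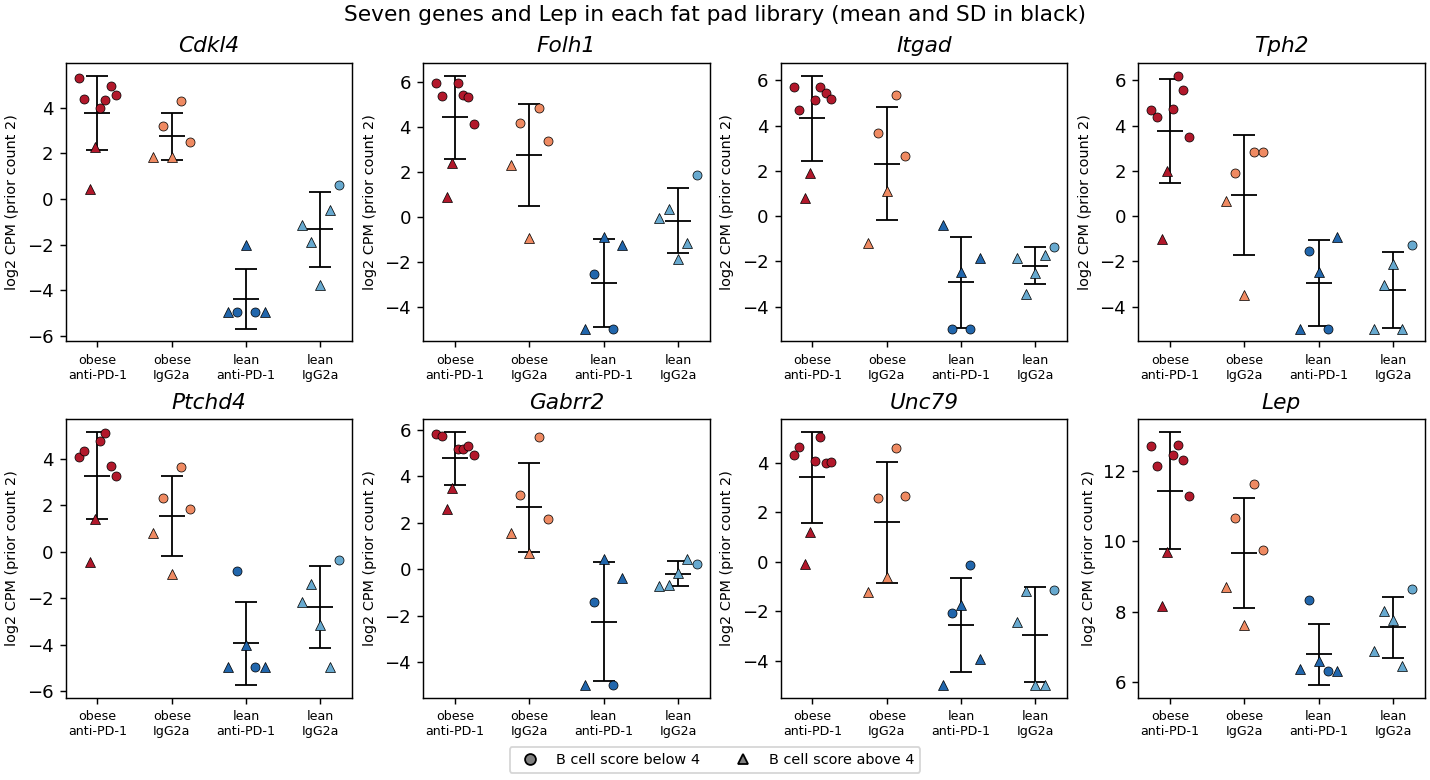
Level of each of the 7 genes and of Lep, as log2 CPM with a prior count of 2 (vertical axes), in every library of the 4 groups (horizontal axis), with the mean and SD in black. Triangles are libraries with a B cell score above 4, and within each obese group they lie below all circles in every panel.

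The 7 genes moved together over obese libraries. In each of the 7 genes obese anti-PD-1 3 was the lowest of its group, and obese IgG2a 4 was the highest of its group. Per length, the median level in obese anti-PD-1 libraries was highest for Gabrr2 (34.1 TPM, range 5.33 to 61.6). Folh1 followed at 19.0 TPM (0.840 to 38.4), then Itgad at 13.6 TPM (0.636 to 22.9), Tph2 at 13.02 TPM (0.260 to 42.9) and Cdkl4 at 10.8 TPM (0.643 to 18.5). Unc79, at 3.11 TPM (0.285 to 6.67), and Ptchd4, at 2.75 TPM (0.141 to 7.22), were the lowest. The ranges of all neighbors in this order overlapped. Over the 9 obese libraries with a B cell score below 4, the 21 pairwise Pearson correlations of log2 CPM between the genes were 0.587 (Gabrr2 and Tph2) to 0.922 (Gabrr2 and Itgad), with a median of 0.808. These are descriptions, because all pairs share the same libraries and their differences in other cells' RNA.

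The contrast that chose the genes gave fitted log2 fold changes, obese anti-PD-1 over lean anti-PD-1, of 8.71 for Cdkl4, 7.35 for Folh1, 7.11 for Itgad, 7.09 for Tph2, 7.07 for Ptchd4, 6.10 for Gabrr2 and 5.88 for Unc79. With lean libraries at or near 0, the size of such values depends on the prior count of the fit. Of all genes tested, 5.2% were called higher in this contrast by edgeR's quasi-likelihood test (Benjamini-Hochberg adjusted p under 0.05), and nothing is read from the genes' own standing in it. Between the antibodies in obese mice the fitted log2 difference, anti-PD-1 over IgG2a, was 1.14 (Unc79) to 2.75 (Tph2), and the ranges of the groups overlapped for each gene. This difference is also a description, as the genes were picked for their height under anti-PD-1. Summed over the 7 genes, the median was 213 CPM in obese anti-PD-1, 43.6 CPM in obese IgG2a, 1.53 CPM in lean anti-PD-1 and 2.71 CPM in lean IgG2a libraries.

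The comparison of obese IgG2a with lean IgG2a mice asked whether obesity alone, without PD-1 blockade, went with higher levels. Of the genes, 5 rose. Itgad was higher by 5.84 ± 1.26 (log2 fold change ± SE; adjusted p = 0.00836), Unc79 by 5.20 ± 1.37 (0.0269), Tph2 by 4.82 ± 1.37 (0.0398), Gabrr2 by 3.94 ± 1.05 (0.0297) and Cdkl4 by 3.84 ± 1.02 (0.0287), all by edgeR's quasi-likelihood test over 19882 genes with 5 mice a group. Ptchd4 (4.06 ± 1.28, adjusted p = 0.0638) and Folh1 (3.28 ± 1.09, adjusted p = 0.0784) did not pass in the same edgeR test. Thus 5 of 7 were called, against 2.68% of all genes called higher. With limma voom or with log2(TPM + 1) in place of edgeR, 0 of the 7 were called, while 217 and 514 of all genes were called higher. The median log2 difference was 4.06 over the 7 genes and 0.12 over all genes tested. The low lean level was part of the choice of these genes, so the comparison is independent of the pattern only on its obese side. Lep itself had 416, 1609, 195, 3144 and 868 CPM in obese IgG2a and 118, 259, 218, 87.3 and 396 CPM in lean IgG2a libraries, a log2 difference of 2.53 ± 0.770 that did not pass (edgeR adjusted p = 0.0536).

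Single libraries moved that count, and the count over all genes moved as well. Leaving out obese IgG2a 4, or any of lean IgG2a 1, 2 and 3, left 1 of 7 called. Over all genes, 692 were called higher without obese IgG2a 4, and 157, 185 and 281 without lean IgG2a 1, 2 and 3. With all libraries 532 were. Of the 7, 2 were called with lean IgG2a 5 omitted and 3 with obese IgG2a 2 omitted (187 and 279 of all genes). Omitting obese IgG2a 3 gave 7 (817 of all genes). Leaving out obese IgG2a 2 and 5 together, an alternative chosen after seeing the data, left 1 called, and 55 of all genes called higher. Itgad kept its call in each of the 10 fits without 1 library (log2 4.66 to 6.15, edgeR adjusted p 0.00337 to 0.0300), while the other called genes kept it in 2 (Tph2) or 5 (Cdkl4, Gabrr2, Unc79) of them. No such fit turned a direction, and in each of them all 7 genes had an unadjusted edgeR p under 0.05.

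Other tissue markers differed between these groups as well. Mammary epithelium markers summed to 488 to 953 CPM in obese IgG2a and 1251 to 2245 CPM in lean IgG2a libraries, with 3 of 10 called lower, against 3.12% of all genes. Macrophage markers summed to 592 to 2661 CPM in obese IgG2a and 573 to 1145 CPM in lean IgG2a libraries, with 3 of 10 called higher, against 2.68% of all genes. Tumor-linked genes summed to 55.4 to 411 CPM in obese IgG2a and 12.0 to 75.2 CPM in lean IgG2a libraries, with 3 of 4 called higher. Liver genes summed to 1054 to 9760 CPM in obese IgG2a and 344 to 1055 CPM in lean IgG2a libraries, with 5 of 8 called higher. Hp, not among those 5, measured 834 to 1742 CPM and 306 to 833 CPM in these groups. Of the 5, Ahsg averaged 127 ± 279 CPM (SD, 0 to 626), Fga 66.2 ± 145 CPM and Cps1 67.9 ± 151 CPM in obese IgG2a libraries. Markers of lipid-associated macrophages summed to 2432 to 10596 CPM in obese IgG2a and 4387 to 13090 CPM in lean IgG2a libraries, with 5 of 10 called higher and 2 lower. Lpl (mean 4647 and 5639 CPM) and Ctsd (952 and 2000 CPM) carried much of these sums. Those called higher were Trem2 (9.04 and 1.24 CPM), Gpnmb (67.9 and 13.3 CPM), Spp1 (110 and 3.89 CPM), Atp6v0d2 and Mmp12, and those called lower Ctsd and Fabp5. Neutrophil markers summed to 95.2 to 239.6 CPM in obese IgG2a and 57.5 to 193 CPM in lean IgG2a libraries, with 1 of 7 tested called higher and a median log2 difference of 4.29. No marker of these lists was at 0 in all libraries of either group. The part of these tissues in the result was not tested.

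Adding the B cell score or Lep as a covariate moved the count in opposite ways. With the B cell score as a covariate all 7 genes were called (log2 2.62 to 4.75, edgeR adjusted p 0.00495 to 0.0370), against 7.36% of all genes called higher. Lep, higher by 2.53, and the adipocyte markers did not move alike between these groups: the 10 markers had a median log2 difference of -0.57 and 2 of them were called lower. With log2 Lep as a covariate the direction stayed in all 7, but only Itgad passed (2.84 ± 1.05, edgeR adjusted p = 0.0499989), against 13.3% of all genes called higher. The Lep-adjusted differences of the others were 2.12 (Unc79), 2.11 (Cdkl4), 2.06 (Tph2), 1.39 (Gabrr2), 1.18 (Ptchd4) and 0.53 (Folh1), with edgeR adjusted p of 0.0750 to 0.655. Within the libraries above a B cell score of 4 no gene of the 7 passed in edgeR (2 had an unadjusted p under 0.05), against 3.1% of all genes called higher. Below it Itgad alone passed, against 0.211% of all genes, with lean IgG2a 5 the only lean IgG2a library there.

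**Figure D2:**
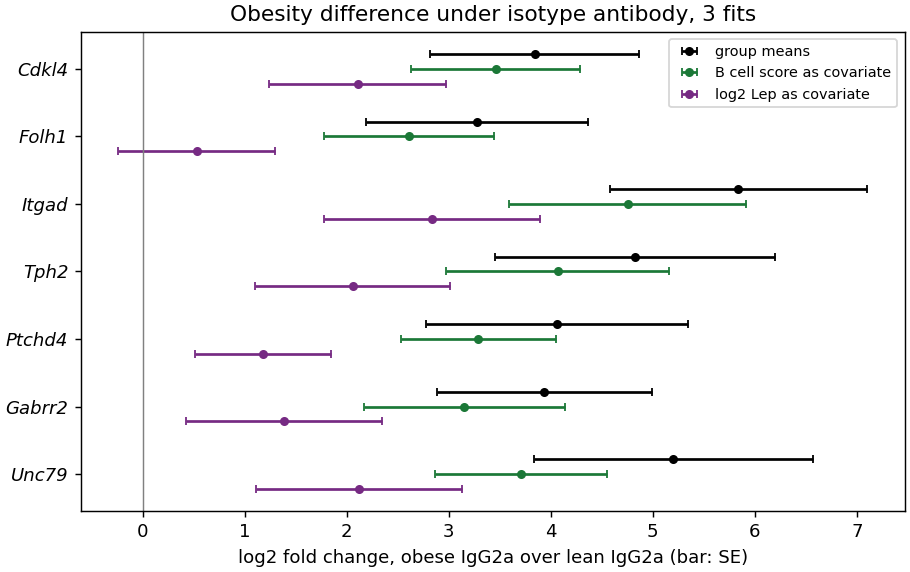
Fitted log2 fold change of each gene, obese IgG2a over lean IgG2a (horizontal axis), with its SE as the bar, from group means alone (black), with the B cell score as a covariate (green) and with log2 Lep as a covariate (purple). Every point lies above 0, and the purple points are the lowest, from 0.53 for Folh1 to 2.84 for Itgad.

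Fitted as a single slope shared by the 4 groups, each gene rose with Lep among libraries of the same group. Single groups could depart from it. In lean IgG2a libraries Gabrr2 was highest (1.34 CPM) in library 4, where Lep was lowest (87.3 CPM). The slope, in log2 of the gene per log2 of Lep, was 1.34 ± 0.274 for Tph2, 1.28 ± 0.175 for Ptchd4, 1.14 ± 0.268 for Unc79, 1.10 ± 0.212 for Folh1, 0.93 ± 0.264 for Itgad, 0.73 ± 0.219 for Gabrr2 and 0.70 ± 0.227 for Cdkl4 (SE). All 7 passed edgeR's quasi-likelihood test, with adjusted p from 4.4e-06 (Ptchd4) to 0.0158 (Cdkl4). Such slopes were common, since 22.5% of 19881 genes had a called slope in the same direction. The count was 5 without obese IgG2a 4, 6 without obese anti-PD-1 3 and 7 without any 1 of the other libraries. With Adipoq, which encodes the adipocyte hormone adiponectin, in place of Lep, 4 of the 7 passed, against 18.2% of all genes.

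Lymph node content moved with the same libraries. The slope on the B cell score was negative for all 7 genes and passed for Unc79 (-0.38), Ptchd4 (-0.37), Tph2 (-0.31), Folh1 (-0.28) and Cdkl4 (-0.19), with edgeR adjusted p of 5.3e-05 to 0.0362. Those of Itgad (-0.23, edgeR adjusted p = 0.101) and Gabrr2 (-0.16, 0.166) did not pass. Of all genes, 22.5% had a called negative slope. Lep had one too (-0.25, edgeR adjusted p = 3.6e-05). In a fit with both measures, no gene of the 7 had a called slope on the B cell score by edgeR (1 had an unadjusted p under 0.05), against 0.931% of all genes called negative, and 4 slopes turned positive (Folh1, Itgad, Tph2 and Gabrr2). In that fit Gabrr2 alone kept a called slope on Lep (1.30 ± 0.372, edgeR adjusted p = 0.0475), against 4.31% of all genes, while the slopes of the other 6 were 0.47 (Unc79) to 1.41 (Tph2).

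In obese mice the split by lymph node was wide. Folh1 measured 0.492 to 5.35 CPM (median 3.40) in the 4 obese libraries with a B cell score above 4 and 10.4 to 62.1 CPM (median 40.7) in the 9 others. Itgad measured 0.405 to 3.71 CPM in those 4 and 6.30 to 52.2 CPM in those 9. Tph2 measured 0.0562 to 3.99 and 3.68 to 73.5 CPM, Ptchd4 0.478 to 2.63 and 3.51 to 34.6 CPM, Unc79 0.405 to 2.30 and 6.02 to 33.4 CPM, Cdkl4 1.31 to 4.79 and 5.62 to 39.1 CPM, and Gabrr2 1.60 to 11.3 and 4.47 to 55.9 CPM in the same sets. The sets overlapped for Tph2 and Gabrr2 only. How many of all genes split so was not counted, but 22.5% had a called negative slope on the B cell score. Lep, at 195 to 830 and 868 to 6810 CPM, split in the same way.

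Because the obese libraries form these 2 sets, correlations with Lep are given within the larger one. Within the 9 obese libraries with a low B cell score, the Pearson correlation of log2 CPM with Lep was 0.957 for Folh1, 0.936 for Ptchd4, 0.902 for Itgad, 0.884 for Gabrr2, 0.837 for Unc79, 0.832 for Cdkl4 and 0.826 for Tph2. An exact two-sided permutation test that ignored the group gave raw p of 0.000149 (Folh1) to 0.00772 (Unc79). Benjamini-Hochberg adjusted p by this test was 0.000391 (Folh1) to 0.00809 (Unc79) over 21 relations computed. These p-values are given as a description, for the reason stated below. Spearman's rho was 0.917 for Ptchd4, 0.900 for Folh1 and Tph2, and 0.800 for Itgad (exact permutation, raw p of 0.00131 to 0.0138, adjusted p of 0.00344 to 0.0194). It was 0.683 for Unc79, 0.600 for Gabrr2 and 0.550 for Cdkl4, with raw p of 0.0503, 0.0968 and 0.133 and adjusted p of 0.0622, 0.107 and 0.139 by the same exact permutation, which do not pass. Without the 2 libraries farthest from the median of Lep, r was 0.909 for Folh1, 0.818 for Tph2 and 0.768 for Ptchd4, but 0.425 for Itgad, 0.301 for Unc79, 0.246 for Gabrr2 and 0.199 for Cdkl4. The relation of these last 4 rests on those 2 libraries, obese IgG2a 5 and 2 (Lep 868 and 1609 CPM). They also held the highest sums of tumor-linked genes (411 and 269 CPM), and obese IgG2a 5 that of liver genes (9760 CPM). The part of such RNA in these correlations was not tested. These 9 libraries mix 6 obese anti-PD-1 and 3 obese IgG2a mice, and the permutations ignored the group. The obese groups differ in Lep, and the genes were chosen for their height under anti-PD-1. The group difference therefore enters these correlations, so they are not independent of the choice. No share over all genes was computed for them. In a fit to these 9 across all genes, with the group as a term and chosen after seeing the data, no slope of the 7 was called by edgeR (6 had an unadjusted p under 0.05), with 1 gene called in all.

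**Figure D3:**
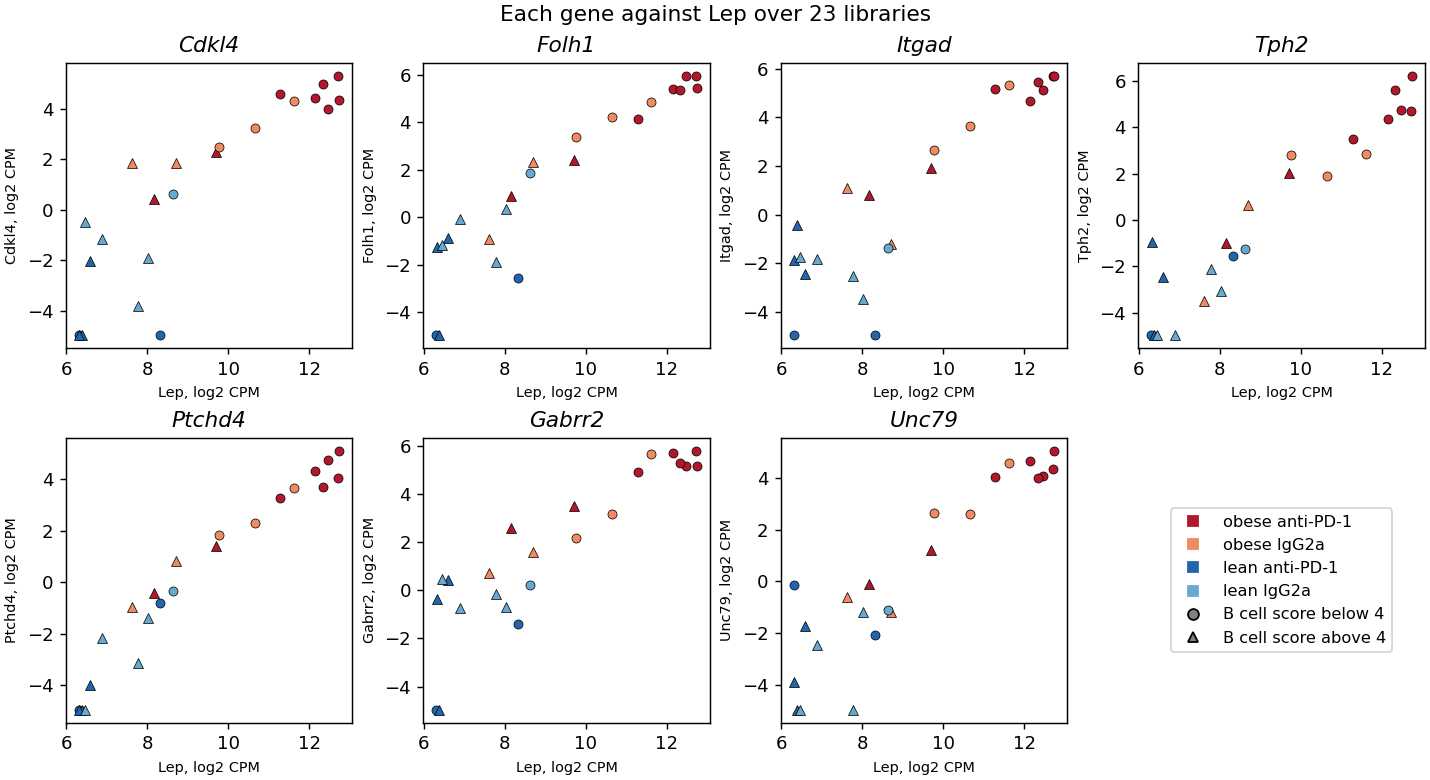
Each gene (vertical axes) against Lep (horizontal axes), both in log2 CPM, in 23 libraries colored by group, with triangles for a B cell score above 4. Obese libraries climb along Lep in every panel, and lean libraries, with Lep of at most 396 CPM, lie at the lower left.

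Set against Lep, the sum of the 7 genes held a narrow level in obese libraries, although single genes did not. The summed CPM per 1000 CPM of Lep was 38.6 to 58.5 (median 44.0) in obese anti-PD-1 and 37.4 to 58.6 (median 45.9) in obese IgG2a libraries. In lean libraries it was 4.80 to 27.5 (median 11.1) under anti-PD-1 and 7.19 to 31.1 (median 20.7) under IgG2a. Among the 13 obese libraries Lep spanned 34.9-fold and this ratio 1.57-fold. The same ratio for a single gene spanned 2.07-fold for Ptchd4 (2.45 to 5.08), 4.06-fold for Gabrr2 (5.14 to 20.9), 4.76-fold for Folh1 (2.52 to 12.0) and 6.63-fold for Cdkl4 (2.78 to 18.4). It spanned 7.87-fold for Unc79 (0.973 to 7.66), 15.1-fold for Itgad (0.973 to 14.7) and 37.5-fold for Tph2 (0.288 to 10.8), the last as widely as Lep itself and with its lowest value resting on 4 counts. The ratio was 37.4 to 45.9 in the 4 obese libraries rich in B cell genes and 38.6 to 58.6 in the other 9. Obese and lean ratios did not overlap for the sum or for Ptchd4 and overlapped for the other 6 genes, but the low lean level was part of the choice of the genes, so no test is given.

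A total of 6 libraries, 2 obese and 4 lean, had Lep within the range that both diets share (195 to 396 CPM). The summed level of the 7 genes was 12.9 CPM in obese anti-PD-1 3 (Lep 286 CPM) and 8.96 CPM in obese IgG2a 3 (Lep 195 CPM). It was 1.53 CPM in lean anti-PD-1 2 (Lep 319 CPM), and 3.00, 1.57 and 8.21 CPM in lean IgG2a 2, 3 and 5 (Lep 259, 218 and 396 CPM). Both obese libraries were above all 4 lean ones, though obese IgG2a 3 by less than 1 CPM over lean IgG2a 5. Adipoq was lower in the 2 obese (306 and 688 CPM) than in the 4 lean libraries (1219 to 3350 CPM).

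**Figure D4:**
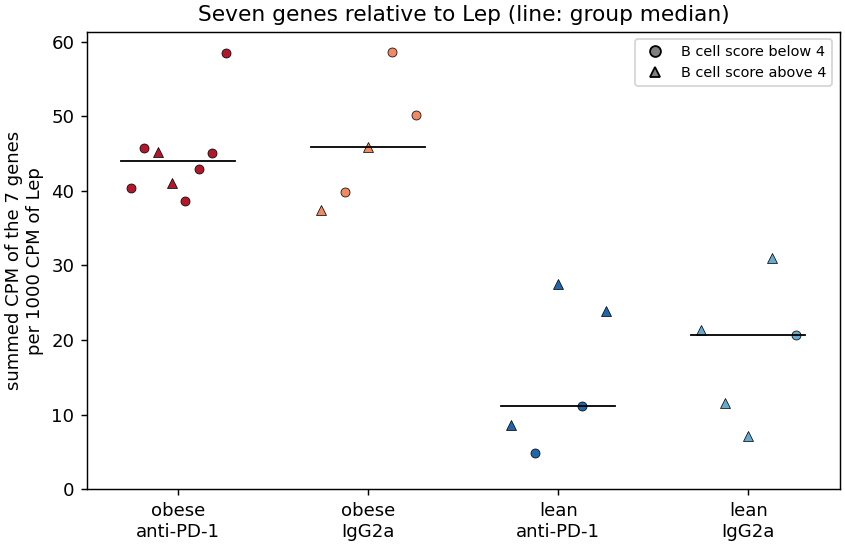
Summed CPM of the 7 genes per 1000 CPM of Lep (vertical axis, from 0) in each library of the 4 groups (horizontal axis), with the group median as a line and triangles for a B cell score above 4. Obese libraries sit between 37.4 and 58.6 and lean libraries between 4.80 and 31.1.

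Over the 13 obese libraries, other genes followed each of the 7 more closely than Lep did, among 14853 genes with a mean of at least 1 CPM there. The 3 most alike by Pearson's r of log2 CPM, leaving aside the 7 genes and predicted genes without a common name (1 each for Folh1 and Itgad), were Npr3, Mfap3l and Mgll for Ptchd4 (r 0.992 to 0.991). For Folh1 they were Clic5, Sema3c and Tril (0.990 to 0.984), for Unc79 H6pd, Aff2 and Sptbn1 (0.988 to 0.985), and for Cdkl4 Entpd2, Atp6v0e2 and Snrpn (0.986 to 0.981). For Itgad they were Sec24d, Afap1l2 and Arvcf (0.986 to 0.973), for Gabrr2 Cacng5, Tbx18 and Mturn (0.986 to 0.975), and for Tph2 Tstd3, Pcolce2 and Kcnj14 (0.979 to 0.974). Npr3 encodes the clearance receptor of natriuretic peptides, and Mgll the lipase that splits monoglycerides. Lep ranked 28 (Tph2), 30 (Ptchd4), 32 (Folh1), 88 (Gabrr2), 376 (Cdkl4), 441 (Unc79) and 451 (Itgad) in likeness. Adipoq ranked 149 for Cdkl4 and between 2222 and 3010 for the other 6. These values pool both sets of obese libraries, so they carry the gap between high and low lymph node RNA and are a description.

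Of the serotonin genes Tph2 was the only one of 17 tested to rise in obese IgG2a against lean IgG2a mice, and none fell. The share called higher over all genes was 2.68%. Tph1, the peripheral tryptophan hydroxylase, averaged 1.20 ± 0.710 CPM in obese anti-PD-1 (SD, n = 8) and 1.28 ± 0.623, 3.99 ± 2.002 and 1.47 ± 0.945 CPM in obese IgG2a, lean anti-PD-1 and lean IgG2a libraries (n = 5 each). Its obesity difference under IgG2a was -0.19 (edgeR adjusted p = 0.952). Ddc, the decarboxylase that completes serotonin synthesis, averaged 0.681 ± 1.01, 2.79 ± 2.77, 1.04 ± 1.13 and 1.19 ± 0.952 CPM in the same order. Of 4 serotonin neuron markers tested, 0 were called higher by edgeR under either antibody, nor did any pass upward at an unadjusted p under 0.05. Of them Gata3 was called lower under anti-PD-1 (-1.57 ± 0.385, edgeR adjusted p = 0.0122). Lmx1b averaged 9.79 and 5.54 CPM in obese anti-PD-1 and obese IgG2a, and 16.8 and 12.9 CPM in lean anti-PD-1 and lean IgG2a libraries. Slc6a4, the serotonin transporter, averaged 3.64 ± 3.30 CPM in obese IgG2a and 0.947 ± 0.352 CPM in lean IgG2a libraries, a difference of 1.94 that did not pass (edgeR adjusted p = 0.359). Fev was at 0 in all obese IgG2a and all lean libraries, and Htr1a was at 0 in all obese anti-PD-1 and all lean libraries. Obese against lean mice under anti-PD-1, Qdpr, which regenerates the cofactor of tryptophan hydroxylase, fell by 0.80 ± 0.186 (edgeR adjusted p = 0.00835), where 4.85% of all genes were called lower.

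Of the GABA genes, 3 of 14 tested rose in obese IgG2a mice, namely Gabrr2, Slc6a13 and Abat, and none fell. Among all genes 2.68% were called higher there. Slc6a13, a GABA transporter, had 33.9 ± 24.1 CPM in obese IgG2a and 5.50 ± 3.54 CPM in lean IgG2a libraries (SD, n = 5 each), a log2 difference of 2.62 ± 0.726 (SE; edgeR adjusted p = 0.0345). Abat, the transaminase that breaks GABA down, had 55.4 ± 50.2 CPM in obese IgG2a and 5.33 ± 4.63 CPM in lean IgG2a libraries, a difference of 3.37 ± 0.806 (edgeR adjusted p = 0.0162). Slc6a13 and Abat were also called higher under anti-PD-1, against 5.2% of all genes. The paralog Gabrr1 was at or near 0 throughout (at most 0.0775 CPM). Abat and Slc6a13 also rose with Lep within groups (slopes 0.94 and 0.77, edgeR adjusted p = 1.0e-05 and 1.2e-06), as did 22.5% of all genes.

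Of 5 genes of the NALCN complex, Unc79 alone rose in obese IgG2a mice, against 2.68% of all genes. None of the other 4 was called under anti-PD-1. Nalcn, the channel itself, averaged 0.356 ± 0.434 CPM in obese anti-PD-1 (SD, n = 8), and 0.204 ± 0.138, 1.30 ± 0.785 and 0.283 ± 0.261 CPM in obese IgG2a, lean anti-PD-1 and lean IgG2a libraries (n = 5 each). Unc80, its other accessory protein, averaged 0.330 ± 0.318, 0.286 ± 0.373, 0.304 ± 0.398 and 0.191 ± 0.174 CPM in the same order. Neuron markers gave no edgeR call among 8 tested under either antibody (1 was higher at an unadjusted p under 0.05 under IgG2a, and 0 under anti-PD-1), and summed to 10.2 to 34.8 CPM in obese and 15.1 to 26.2 CPM in lean libraries. Schwann cell markers gave none among 8 either, with 0 higher and 1 lower at an unadjusted p under 0.05 under each antibody.

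Of 12 genes of beta 2 integrins and their ligands, 3 rose in obese IgG2a mice, against 2.68% of all genes. They were Itgad, Itgam (2.12 ± 0.375, edgeR adjusted p = 0.00174) and the integrin activator Tln1 (0.85 ± 0.237, edgeR adjusted p = 0.0368). Itgb2, the only known partner chain of Itgad, averaged 62.3 ± 48.5 CPM in obese anti-PD-1 (SD, n = 8), and 82.5 ± 41.9, 53.4 ± 43.7 and 55.8 ± 37.7 CPM in obese IgG2a, lean anti-PD-1 and lean IgG2a libraries, with no call for obesity under IgG2a (0.56, edgeR adjusted p = 0.718). Within groups Itgad rose with Lep while Itgb2 fell with it (slope -0.52, edgeR adjusted p = 0.000638), as did 21.9% of all genes. Over the 9 obese libraries with a B cell score below 4, the correlation of Itgad with 10 macrophage markers had a median of -0.329 (range -0.797 to 0.210). With 10 markers of lipid-associated macrophages the median was 0.434 (range -0.716 to 0.897), and with 10 adipocyte markers 0.850 (range 0.279 to 0.933), again as a description. In the lipid-associated macrophage list r was 0.897 for Ctsd and 0.822 for Fabp5, but 0.354 for Trem2 and -0.299 for Gpnmb.

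Of 17 folate and related peptidase genes, none rose by edgeR in obese IgG2a mice (4 at an unadjusted p under 0.05). Slc19a1, the reduced folate carrier, fell there, against 3.12% of all genes. It had 25.9 ± 7.42 CPM in obese IgG2a and 48.4 ± 15.9 CPM in lean IgG2a libraries (log2 difference -0.90 ± 0.245, edgeR adjusted p = 0.0314). None of 15 patched and hedgehog genes passed in edgeR under IgG2a (3 higher and 1 lower at an unadjusted p under 0.05). Under anti-PD-1, 4 of the 14 besides Ptchd4 were called higher, against 5.2% of all genes, among them Disp1 and Ptch1 (1.06 ± 0.318, edgeR adjusted p = 0.0359). Ptch1, which encodes the hedgehog receptor Patched, had 54.4 ± 21.9 CPM in obese anti-PD-1 (SD, n = 8) and 26.04 ± 3.30 CPM in lean anti-PD-1 libraries (n = 5). Within groups, 10 of the 15 rose with Lep, Ptchd4 included, against 22.5% of all genes. Among the cyclin-dependent kinase-like genes Cdkl4 was called under IgG2a, while Cdkl1, Cdkl2 and Cdkl3 were called under neither antibody. In the IgG2a comparison these last 3 had log2 differences of 0.53, 0.15 and -0.26 (edgeR adjusted p of 0.839 to 0.934). The members and lists were chosen with these data known, so the counts are descriptions beside the shares over all genes.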

How the data were processed

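Poly(A) RNA was sequenced with a kit that does not mark strand, from samples with an RNA integrity number above 5, per the labels' protocols. The deposited files give, for each transcript, estimated counts, which the authors did not normalize, and TPM, an abundance per transcript length with 1 fixed total per library, per the file headers. The submitters' processing notes name edgeR, limma and GRCm38 with no version. The program behind the estimates: not given in the sources used here.

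Of 115088 transcripts, 114200 matched GENCODE M21 (the rest held at most 0.208% of a library's counts), and their values were summed to 47311 genes. Counts were rounded, filtered with filterByExpr (minimum count 10), scaled by TMM and fitted with 1 mean per group over all 23 libraries in edgeR 4.0.16 (R 4.3.3; robust quasi-likelihood, two-sided). P-values were adjusted by Benjamini-Hochberg over all genes tested, and a gene was called at an adjusted p under 0.05. Slopes on log2 Lep or on the B cell score were added to the group means, leaving out Lep or the score's own genes. Log2 CPM used a prior count of 2. Exact permutation tests were run in SciPy 1.17.1. The labels give 1 mouse per library, and p-values measure the spread between these samples. The scripts were tested on simulated data with known changes.

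The 7 genes and all gene lists were chosen with earlier results of these data known. The genes named are the 7, Lep, the 3 most alike of each, and the called members and direct partners within each list. Those added beside them were Adipoq, Fev, Htr1a, Gata3, Lmx1b, the libraries' marker sums, and single liver and lipid-associated macrophage markers. Alternatives were DESeq2 1.42.0 size factors or Wald test, limma 3.58.1 voom, other filters, log2(TPM + 1) or log2(TPM + 0.1), coding transcripts only, fewer groups or libraries, covariates, and each library left out. Between 49438121 and 77369057 counts per library limit the precision of values near 0; no per-sample value column was left unread.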

Additional observations from a re-analysis of the deposited data

Results flagged for a closer look

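A library far from the others of its group was looked for in 8 genes (the 7 and Lep) over 4 groups each, by the gap to its nearest neighbor relative to the group's range. Of 32 groups, 5 were marked. The limits of the rule assume normal values, while these CPM are skewed, hold zeros and come from shared libraries. A rate by chance is therefore not given. Obese IgG2a 4 stood above the other obese IgG2a libraries in Gabrr2 (51.0 CPM) and in Unc79 (24.1 CPM), and it also had the highest Lep of that group (3144 CPM). Lean anti-PD-1 2 stood above its group in Lep (319 CPM) and in Ptchd4 (0.534 CPM). Lean anti-PD-1 3 was the only library of its group with Cdkl4 above 0 (0.211 CPM), which marks it whatever the value. Whether lymph node, muscle or tumor RNA has a part in these values was not tested.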

How the results depend on the processing

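No paired analysis was possible because the labels give no replicate numbers and each mouse gave 1 library. In the obese IgG2a against lean IgG2a comparison, the count of 5 genes called out of the 7 became 0 with limma voom (2 at an unadjusted p under 0.05), 0 with log2(TPM + 1) (5 unadjusted), 3 with the 2 groups alone, 1 with log2 Lep as a covariate, 0 in libraries with a B cell score above 4 and 1 in those below, and 1 when obese IgG2a 2 and 5 were both omitted. It became 7 with the DESeq2 Wald test and 7 with the B cell score as a covariate, and ranged from 1 to 7 when single libraries were left out. Over all genes the count of 1152 became 2075 with the DESeq2 Wald test, 583 with the 2 groups alone, 3019 with the B cell score and 5515 with log2 Lep as a covariate, 1896 and 255 in the libraries above and below that score, 293 when obese IgG2a 2 and 5 were omitted, and 495 to 1662 without single libraries. The count over all genes was 859 with limma voom and 812 with log2(TPM + 1), of which 217 and 514 were higher. No alternative turned the direction of any of the 7 in the obese IgG2a against lean IgG2a comparison or in the Lep slope. The 7 called slopes on Lep became 1 with the B cell score as a covariate, 4 with Adipoq, and 0 in the libraries with a B cell score below 4 or in the 9 obese ones of them (5 and 6 at an unadjusted p under 0.05), the last pair chosen after seeing the data. They were 5 to 7 without single libraries, the lean ones added after seeing the data. The 5 called slopes on the B cell score became 0 with log2 Lep as a covariate (1 unadjusted), where those of Folh1 (0.042), Itgad (0.114), Tph2 (0.026) and Gabrr2 (0.214) turned positive, and were 4 to 7 without single libraries. Called slopes on the B cell score numbered 7 with limma voom, 7 in the 13 obese libraries and 6 with a score from lymph node stroma genes instead. The cause was not tested. Depth limits the lean values near 0 and that of Tph2 in obese IgG2a 3 (4 counts).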
